A study of Mus musculus with 2 samples.

Results

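The genes described here build, extend, steer or remove ubiquitin chains. They were chosen by symbol from a table of E2F1 peaks in mouse hepatocytes: a row belongs if its gene symbol starts with Ube2, with Usp or Cul and a digit, or with Fbxo, Fbxw, Fbxl or Anapc. The rule used names and the presence of a row, and no value of a peak. It kept 80 of the 6887 pairs of a peak and a gene, made of 79 of the 5667 peaks and 68 of the 5587 gene symbols. The table comes from primary hepatocytes of C57Bl6J mice that carried the adenovirus Ad-E2F1 and were harvested 36 h later. Chromatin immunoprecipitation followed by sequencing (ChIP-seq) was done with the E2F1 antibody c20, and the labels give 1 record of ChIP and 1 of input chromatin, both from infected cells. Cells without Ad-E2F1 were not analysed here, so every peak is a peak under added E2F1. The series text speaks of 2 replicates of 2 combined ChIPs each, but the table has a single value per peak. No value below therefore has a replicate error and no comparison between samples was possible. Levels of marker genes cannot be read from peaks, so the labelled cell type was not checked here.

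Ubiquitin is passed from an activating enzyme (E1) to a conjugating enzyme (E2, the Ube2 genes) and is then placed on a target with the help of a ligase (E3). Cullins are the scaffolds of a large class of ligases, and F-box proteins (Fbxo, Fbxw and Fbxl genes) are the exchangeable parts that bring targets to the scaffold Cul1. The anaphase-promoting complex (APC/C, the Anapc genes) is a related ligase that destroys cyclins and securin in mitosis. Most Usp genes code for proteases that take ubiquitin off again. In cycling cells these enzymes set the level of cyclins and of E2F1 itself, while most adult hepatocytes rest outside the cycle.

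Of the 80 pairs, 35 lay at the promoter of their ubiquitin gene, taken as a peak summit within 1000 bp of the transcription start site (TSS). That is 43.8% (exact binomial 95% interval 32.7% to 55.3%, counting error only), close to the 42.7% of all pairs in the table. These 35 pairs belonged to 35 genes, and the remaining 33 genes had peaks only elsewhere. The strength of the promoter pairs was also near that of the table. Their fold over input, the authors' ratio of ChIP tags to the background expected from input, had a median of 6.68, with a range of 3.16 to 27.51. The median over all 2943 promoter pairs was 6.52. A fold of at least 10 was reached by 9 of the 35 promoter pairs (25.7%), against 22.1% of all promoter pairs. The 45 other pairs had a median fold of 4.21, against 4.15 for all other pairs in the peak list. By both measures, the listed pairs of ubiquitin genes were near those of the whole peak list.

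**Figure D1:**
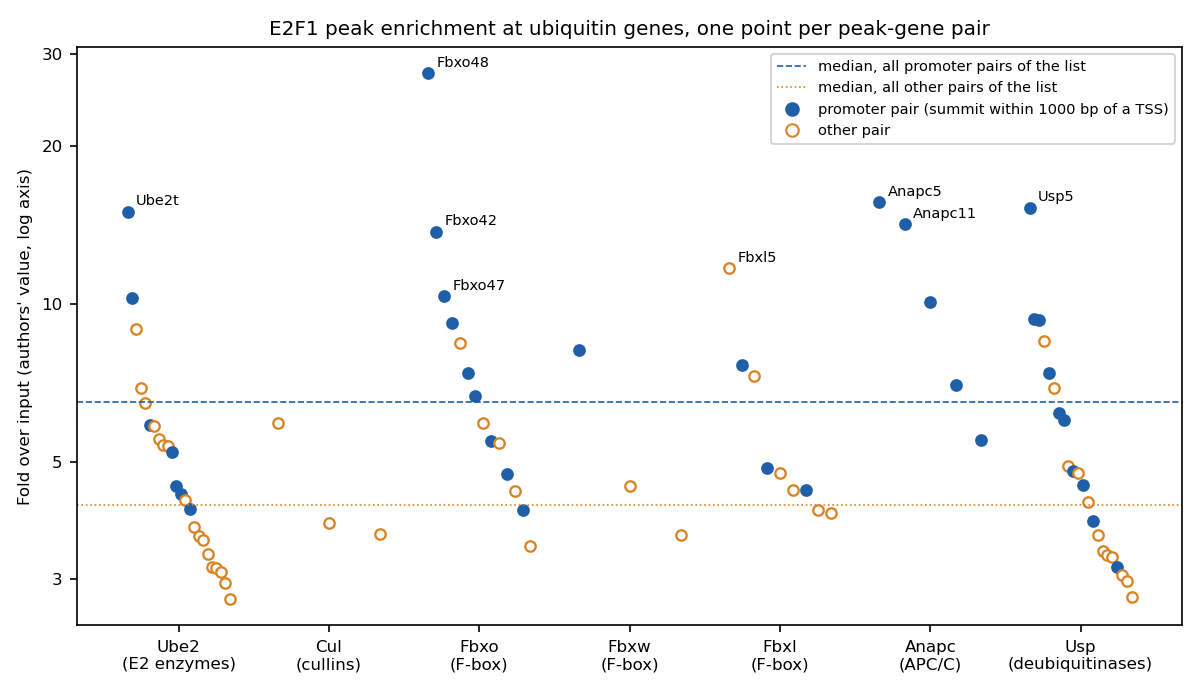
Fold over input (authors' value, log axis) of each of the 80 peak-gene pairs, by gene family, ordered by fold within a family. Filled points are promoter pairs, open points other pairs, and the lines give the medians over the whole table (6.52 for promoter pairs, 4.15 for other pairs). Fbxo48 stands highest at 27.51, all 5 Anapc pairs are promoter pairs, and none of the 3 Cul pairs is.

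Promoter sequences are shown for 6 genes whose peak window of 301 bp, centred on the summit, held the TSS and for which the RefSeq table gives a single promoter. They are the 250 bases before the start site, 5′ to 3′ on the strand of the gene, from RefSeq on GRCm38.p6, an assembly other than the mm9 of the peaks. The TSS in the window is that of the peak table and may differ from the RefSeq start, so a printed sequence need not lie under the peak. Ube2t, Ube2v1, Usp19 and Usp2 are shown because they held an E2F motif there, Ube2c for its many CCAAT boxes, and Fbxo42 as a strong peak over a promoter with none of the motifs searched. Capitals mark E2F motifs in Ube2t, Ube2v1, Usp19 and Usp2, and CCAAT boxes and a CHR element in Ube2c.
Ube2t (chr1:134962315-134962564, plus strand): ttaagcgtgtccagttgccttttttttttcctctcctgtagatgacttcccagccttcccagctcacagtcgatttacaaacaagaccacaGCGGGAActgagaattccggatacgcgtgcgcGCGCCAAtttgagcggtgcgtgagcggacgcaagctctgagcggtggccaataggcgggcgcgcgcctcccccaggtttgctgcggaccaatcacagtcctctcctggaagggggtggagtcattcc
Ube2v1 (chr2:167632006-167632255, minus strand): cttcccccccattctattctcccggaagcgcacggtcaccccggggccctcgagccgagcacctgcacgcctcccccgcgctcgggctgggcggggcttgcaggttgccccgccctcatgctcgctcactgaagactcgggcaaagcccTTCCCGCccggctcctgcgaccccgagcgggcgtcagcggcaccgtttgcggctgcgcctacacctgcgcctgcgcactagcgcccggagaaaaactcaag
Usp19 (chr9:108490426-108490675, plus strand): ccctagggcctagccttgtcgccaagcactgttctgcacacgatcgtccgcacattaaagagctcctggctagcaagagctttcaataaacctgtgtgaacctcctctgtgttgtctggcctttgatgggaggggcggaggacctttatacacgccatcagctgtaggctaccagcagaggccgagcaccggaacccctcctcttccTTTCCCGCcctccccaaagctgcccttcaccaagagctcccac
Usp2 (chr9:44084670-44084919, plus strand): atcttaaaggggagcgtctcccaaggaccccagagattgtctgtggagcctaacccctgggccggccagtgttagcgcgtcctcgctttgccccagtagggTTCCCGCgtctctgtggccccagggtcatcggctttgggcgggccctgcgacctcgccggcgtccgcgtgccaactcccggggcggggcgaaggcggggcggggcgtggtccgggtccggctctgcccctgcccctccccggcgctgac
Ube2c (chr2:164769679-164769928, plus strand): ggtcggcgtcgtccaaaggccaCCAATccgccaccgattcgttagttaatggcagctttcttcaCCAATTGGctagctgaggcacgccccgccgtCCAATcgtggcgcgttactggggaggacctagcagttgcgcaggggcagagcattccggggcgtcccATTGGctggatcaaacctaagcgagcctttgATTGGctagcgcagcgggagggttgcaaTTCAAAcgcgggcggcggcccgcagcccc
Fbxo42 (chr4:141147672-141147921, plus strand): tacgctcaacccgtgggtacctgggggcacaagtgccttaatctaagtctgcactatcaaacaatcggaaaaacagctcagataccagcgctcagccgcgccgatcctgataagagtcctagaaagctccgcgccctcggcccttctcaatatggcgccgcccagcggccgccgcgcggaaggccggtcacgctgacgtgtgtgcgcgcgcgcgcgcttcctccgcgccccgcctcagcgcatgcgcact

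The motifs were searched on both strands of the whole RefSeq promoter, from 250 bases before to 50 bases after the start. The table held 27 of the 35 genes with a promoter peak, with 32 promoters. Those without an entry included Fbxl8, Fbxo24, Fbxo45, Fbxo47, Ube2e3, Usp43 and Usp5. The strict E2F motif was TTTCCCGC, TTTGGCGC, TTTCGCGC or TTTGCCGC. It occurred in 1 of the 32 promoters (3.12%, exact 95% interval 0.0791% to 16.2%), that of Usp19, at positions -43 to -36 from the start. All 32851 promoters of the table held it in 2.26%, and the promoters of protein-coding genes with a listed promoter peak in 8.19%. The short E2F motif drops the first T of each spelling, so every strict match is also a short match. It was found in 6 of the 32 (18.8%, interval 7.21% to 36.4%), against 9.57% of all promoters and 26.7% of promoters with a peak. For each form of the motif, the interval of the ubiquitin promoters holds both of these shares. Where the peak window held the TSS, 5 of 14 family promoters (35.7%, interval 12.8% to 64.9%) had the short motif. The share was 31.4% for all such protein-coding promoters. The strict motif was in 1 of these 14 (7.14%), against 9.97%. The 122 family genes of the promoter table without a promoter peak had the short motif in 13.5% of 155 promoters. Median GC content of the family promoters was 62.3% with a promoter peak and 62.0% without. It was 60.7% for all protein-coding genes with a promoter peak, 56.3% for protein-coding promoters and 52.7% over all promoters. Some genes have several promoters that overlap, so promoters are not independent.

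Ube2t had 2 short E2F matches, at -159 to -153 and at -127 to -121, both on the strand opposite to the gene, and 3 CCAAT boxes. The second E2F match shares bases with the first CCAAT box, at -124 to -120. Single short matches lay at -149 to -143 in Usp2, -101 to -95 in Ube2v1 and -236 to -230 in Usp15, and at 21 to 27 past the start in 1 of the 2 promoters of Anapc11. CCAAT, the box bound by NF-Y, was in 12 of the 32 promoters (37.5%), against 37.4% of all promoters and 46.3% of those of protein-coding genes with a promoter peak. Ube2c held 6 CCAAT matches, of which those at -186 to -182 and at -183 to -179 overlap on opposite strands. Its promoter also held TTTGAA, the core of the cell cycle genes homology region (CHR), at -29 to -24. The CHR core was in 6 of the 32 (18.8%), against 17.9% and 13.2%. A match is a stretch of letters and not a measured site.

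**Figure D2:**
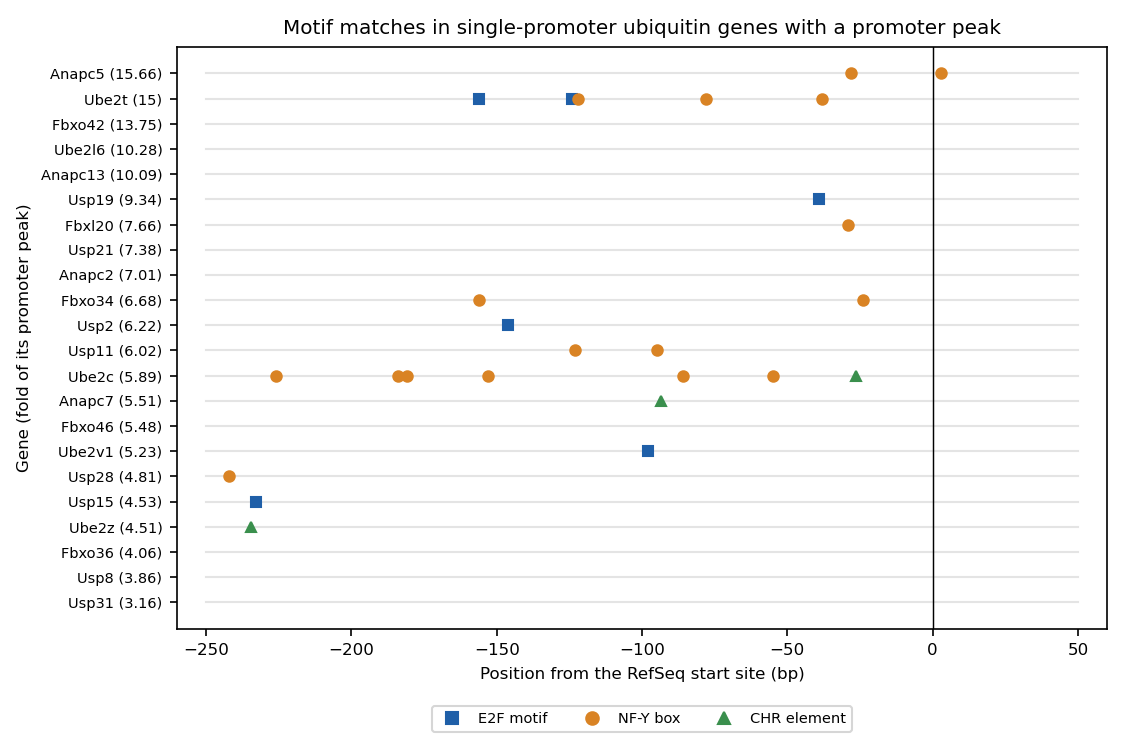
Position of motif matches from the RefSeq start site (bp) in the 22 genes with a promoter peak and a single promoter in the table, ordered by the fold in brackets. Squares are short E2F motifs, circles NF-Y boxes and triangles CHR elements. E2F matches appear in 5 of the 22 genes and 9 genes have no match of any kind, among them Fbxo42 with a fold of 13.75.

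Across the families, the gene table lists 189 protein-coding genes with these name starts. Of these, 69 (36.5%, exact 95% interval 29.6% to 43.8%) had a listed peak and 35 (18.5%, interval 13.3% to 24.8%) a promoter peak. Over all 21900 protein-coding genes the shares were 24.7% and 13.1%. The family genes were also longer, with a median of 29983 bp against 17146 bp, and the part of length in these shares was not tested. The gene group was chosen with earlier results of these data known. Among Ube2 genes any listed peak was found at 19 of 37 (51.4%, interval 34.4% to 68.1%). The Anapc genes had the highest share of promoter peaks, with 5 of 10 genes (50%, interval 18.7% to 81.3%). Fbxo followed with 9 of 36 (25.0%, interval 12.1% to 42.2%), then Ube2 with 7 of 37 (18.9%) and Usp with 10 of 56 (17.9%). Fbxl had 3 of 18 (16.7%), Fbxw 1 of 24 (4.17%) and Cul 0 of 8 (0%, interval up to 36.9%). For promoter peaks, Anapc was the only family whose interval lay wholly above 13.1%. The intervals of the families for promoter peaks overlap each other. For any listed peak, the Fbxw interval (3 of 24 genes, 2.66% to 32.4%) lay wholly below that of Ube2. All these intervals cover counting error over few genes. Differences between families were not tested.

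**Figure D3:**
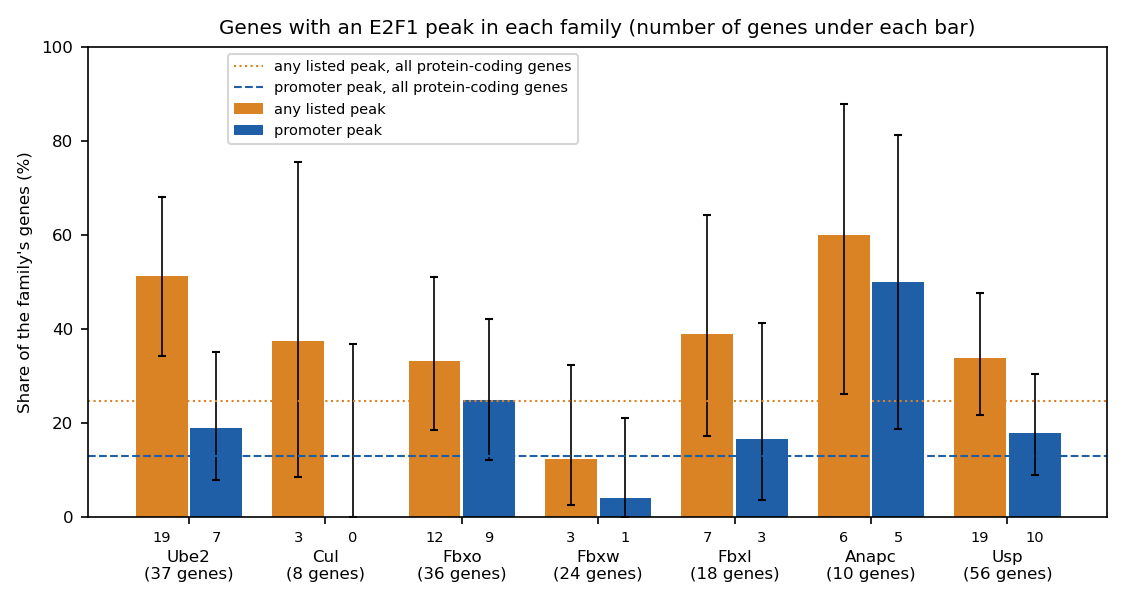
Share of the protein-coding genes of each family (%) with any listed peak (orange) and with a promoter peak (blue). Error bars are exact binomial 95% intervals, the numbers under the bars count genes, and the lines give the shares over all protein-coding genes (24.7% and 13.1%). Anapc stands highest with 6 and 5 of 10 genes, and Cul has listed peaks at 3 of 8 genes but 0 at promoters.

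Among the E2 enzymes, 19 Ube2 genes had 24 pairs, of which 7 were at promoters. Ube2t, the E2 that loads ubiquitin on the Fanconi protein FANCD2, had the strongest one (chromosome 1, 136858869 to 136859169, mm9). There, 301 tags gave a fold of 15 (exact Poisson 95% interval of the tags 268 to 337). Its window held the TSS, and it ranked 266 by fold among the 5667 peaks. Ube2l6, which conjugates the ubiquitin-like ISG15, had a fold of 10.28 with 458 tags, the window edge 242 bp inside the gene. The other 5 were weaker than the median promoter pair. Ube2c, the E2 that starts chains for the APC/C, had a fold of 5.89 from 83 tags (interval 66.1 to 103) in a window that held the TSS (chromosome 2, 164595234 to 164595534). Ube2v1, an inactive partner of the E2 Ube2n, had a fold of 5.23 over its TSS. Ube2z, which takes ubiquitin from the E1 Uba6, had 4.51, the NEDD8 enzyme Ube2f 4.35 and Ube2e3 4.08, the lowest promoter fold among the Ube2 genes.

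The other 12 Ube2 genes had peaks only away from the promoter. Ube2l3 had a peak inside the gene with its window edge 880 bp from the TSS and a fold of 8.98, just outside the promoter limit of 850 bp for the edge. A second Ube2l3 peak lay 7373 bp upstream with a fold of 6.48, nearer to Rimbp3. Ube2a, a RAD6 enzyme of damage tolerance, was named for a peak 9618 bp upstream on chromosome X with a fold of 6.93, which lies in C330007P06Rik. The upstream peaks of Ube2l3 and Ube2a were nearer to another gene and cannot be assigned to the ubiquitin gene by distance.

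Downstream of their genes lay the peaks of Ube2k (fold 5.53), Ube2r2 (5.40) and Ube2d1 (5.38). The Ube2d1 peak, 17137 bp past the gene, was at the promoter of Tfam, a mitochondrial transcription factor. Ube2w (4.23 and 3.62), Ube2q2 (3.55 and 2.75), Ube2g2 (3.16), Ube2e2 (3.15), Ube2h (3.09) and Ube2cbp (3.76) had peaks inside the gene. Ube2cbp carries the name start but is a binding partner of Ube2c with ligase activity and no E2. Ube2s, which extends the chains that Ube2c starts, was not listed. Nor were Ube2n and Ube2b of damage tolerance or the NEDD8 enzyme Ube2m.

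No cullin had a promoter peak. Cul1, the scaffold of the F-box ligases, had a fold of 3.84 with 172 tags at 38732 bp inside the gene. Cul5 had a fold of 3.65 with 140 tags at 9359 bp inside the gene. Cul9, which is known to bind p53, had a fold of 5.93 with 63 tags at 6799 bp upstream, in a window that is nearer to Srf and lies inside it. Cul2, Cul3, Cul4a, Cul4b and Cul7 were not listed. Against the median of 4.15 for pairs away from promoters, Cul9 lay above and Cul1 and Cul5 below.

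F-box genes held the strongest peak of the whole group. At Fbxo48 the fold was 27.51 from 400 tags (interval 362 to 441), at a false discovery rate listed as 0% (chromosome 11, 16851091 to 16851391, the TSS in its window). It ranked 41 among the 5667 peaks and was the only peak of a ubiquitin gene among the first 100. Its RefSeq promoters held a CCAAT box and a CHR core and no E2F motif of either form. Fbxo42, whose product is known to act on p53, had a fold of 13.75 from 233 tags over its TSS (chromosome 4, 140703577 to 140703877). Fbxo47, a gene of germ cell meiosis, had 10.36 with 448 tags. Fbxo24 had a fold of 9.20 at a promoter shared with Lrch4.

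Lower in the Fbxo family came Fbxo7, which acts in mitophagy, with 7.38, Fbxo34 with 6.68, Fbxo46 with 5.48, Fbxo45 with 4.75 and Fbxo36 with 4.06. Fbxo45 shared its promoter peak with Wdr53 and Fbxo36 with Trip12, itself a ubiquitin ligase gene. Fbxo46 had 3 peaks, more than any other gene of the group. The peak over its TSS had a fold of 5.48, a second with the edge 1156 bp upstream had 5.44 and sat at the promoter of Gm4969, and the third, 11541 bp inside the gene, was the strongest with 8.43. Away from promoters lay the peaks of Fbxo2 (5.93), Fbxo28 (4.41) and Fbxo15 (3.47). Fbxo5, which codes for the APC/C inhibitor Emi1, was not listed, and neither were Fbxo4 and Fbxo31, whose products target cyclin D1.

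Of the Fbxw genes, Fbxw2 had a promoter peak with a fold of 8.19 and 328 tags. Fbxw7, which marks cyclin E and Myc for destruction, had a fold of 3.64 with 195 tags at 113111 bp inside the gene. Fbxw22 had a peak with a fold of 4.5 at 8187 bp past its end. The gene belongs to a group of similar copies in mouse, and others of these, such as Fbxw14 and Fbxw15, were among the 21 Fbxw genes with no listed peak. Reads that fit several copies equally well can be lost or split, so these genes are uncertain.

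The Fbxl genes had 9 pairs, 3 of them at promoters. Among these, Fbxl20 had a fold of 7.66 and Fbxl8 4.87 at a promoter shared with Tradd. Fbxl19 had a peak with its edge 1015 bp upstream and a fold of 7.29, in the authors' promoter class but outside 1000 bp. The strongest Fbxl peak was no promoter peak. It lay 32903 bp inside Fbxl5, the iron-sensing F-box protein, where 414 tags gave a fold of 11.73 (chromosome 5, 44179675 to 44179975). Fbxl17 had folds of 4.05 and 4 at 7771 and 102894 bp inside a long gene, and Fbxl22 4.78 in a peak that lies past the end of Usp3.

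All 5 Anapc genes in the table had their single peak at the promoter. Anapc5, a platform subunit, had a fold of 15.66 from 260 tags, the edge 297 bp inside the gene (chromosome 5, 123270751 to 123271051). Anapc11, the RING subunit that recruits the E2, had 14.22 from 167 tags over a promoter shared with Thoc4 (chromosome 11, 120459678 to 120459978). The small subunit Anapc13 had 10.09 with 253 tags at a promoter shared with the centrosome gene Cep63. Anapc2, the cullin subunit, had 7.01 with 77 tags, shared with Ssna1, and Anapc7 5.51 with 139 tags. Their median was 10.09, and 4 of the 5 lay above the 6.52 of all promoter pairs. Anapc1, Anapc4, Anapc10 and Anapc16 were not listed. Anapc15 stands in the table under the older name 3200002M19Rik, outside the symbol rule, with a fold of 23.29 and 596 tags at 15192 bp inside the gene.

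Among the deubiquitinases, 19 Usp genes had 22 pairs, 10 of them at promoters. Usp5, which takes apart free ubiquitin chains, had the highest fold, 15.26 from 541 tags (interval 496 to 589; chromosome 6, 124780049 to 124780349). Its window ended 546 bp upstream of the Usp5 TSS and lay 484 bp inside Cdca3, a cell cycle gene, which was the closer of the pair. Usp43 had 9.39 with 379 tags. Usp19, which acts at the endoplasmic reticulum, had a nearly equal fold of 9.34 from only 66 tags (interval 51.0 to 84.0) in a region of 961 bp. Usp21, known to act on histone H2A, had 7.38, Usp2, a gene with daily rhythm in liver, 6.22, and Usp11, which acts in DNA repair, 6.02.

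Lower promoter folds were those of Usp28, which stabilises Myc, with 4.81, Usp15 with 4.53, the endosomal Usp8 with 3.86 and Usp31 with 3.16. Usp31 shared its peak with 1700069B07Rik and had the lowest promoter fold of the whole group. Usp11 (edge 721 bp), Usp28 (556 bp) and Usp5 (546 bp) were the promoter pairs nearest to the limit of 850 bp. Peaks away from the promoter had folds of 8.51 at Usp18, which removes ISG15, 6.92 at Usp25 and 4.92 at Usp46. Usp3 (4.78 and 3.05), Usp37 (4.21), Usp40 (3.63), Usp16 (3.39), Usp32 (3.33) and Usp34 (3.30 and 2.97) also had none at the promoter. Usp1, which reverses the FANCD2 mark set by Ube2t, was not listed, nor were Usp7, the enzyme of Mdm2, and Usp22 of the SAGA complex. The caller's serial numbers in the table run from 2 to 18908 with 13240 of them not listed, and every listed peak has a score of at least 50 and a false discovery rate of at most 8.57%. A gene that is not listed is therefore not shown to be unbound.

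**Figure D4:**
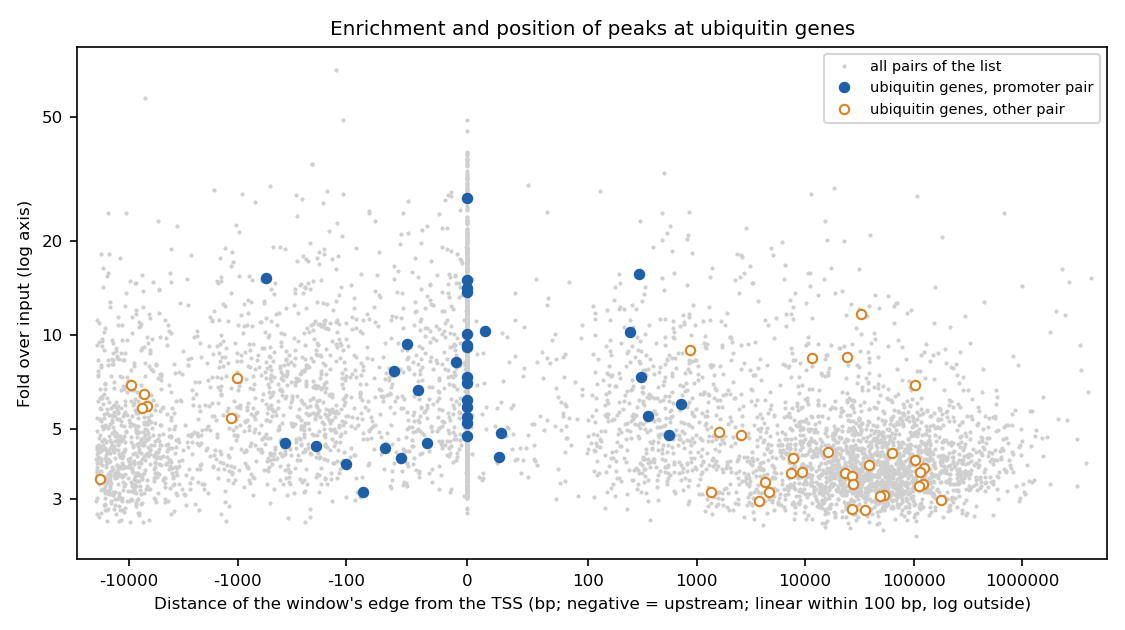
Fold over input (log axis) against the distance of the peak window's edge from the TSS (bp, linear within 100 bp and log outside, negative upstream), for pairs with a distance to the TSS. Grey points are all such pairs of the table, filled points promoter pairs of ubiquitin genes and open points their other pairs. Ubiquitin pairs with a fold of at least 10 lie at promoters, apart from Fbxl5 at 32903 bp with 11.73.

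The 18 pairs that lay inside a gene more than 20000 bp from its TSS had a median fold of 3.585, against 3.82 for such pairs of the whole table. Genes longer than 100 kb made up 8 of these 18 pairs (44.4%) and 0 of the 35 promoter pairs. In the whole table they made up 65.8% of 1458 such pairs and 9.18% of 2897 promoter pairs with a matched gene. The median gene length was 21.9 kb for promoter pairs of ubiquitin genes and 92.8 kb for the deep pairs. A pair this deep can only lie in a gene longer than 20000 bp, so the longer genes of this class are partly set by its definition.

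Promoter peaks were shared with the promoter of another gene in 9 of the 35 pairs (25.7%), against 22.4% of all promoter pairs. These were the peaks of Anapc2, Anapc11, Anapc13, Fbxl8, Fbxo24, Fbxo36, Fbxo45, Usp5 and Usp31. The table cannot say which gene of such a pair the peak belongs to. Several peaks per gene were found for 11 of the 68 genes, and 5 of these had both a promoter peak and another one. The same count over all genes is not given here, so this is not shown to be particular to ubiquitin genes. The promoter peak was the stronger at Ube2e3 (4.08 and 3.35), Ube2z (4.51 and 2.94) and Usp15 (4.53 and 2.77). At Fbxo46 the strongest peak lay inside the gene.

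The genes of the ubiquitin system with other names were taken as 9 lists with 126 genes, of which 42 (33.3%) had a promoter peak, with a median fold of 6.475. Set beside the 13.1% of all protein-coding genes, this share is a description of hand-drawn lists. The lists were chosen with earlier results of these data known, so no excess can be read from it. Ligases of the RING and U-box type with roles in the cell cycle, p53 and DNA damage had promoter peaks at 7 of 18 genes. Their median fold was 11.0, against 6.52 for all promoter pairs. The lowest of them were Rfwd2 (8.2), Stub1 (6.71) and Ube4a (3.38). Mdm4, Rchy1 and Ube4b had peaks only elsewhere, and Mdm2, Brca1, Bard1, Chfr, Trim37, Dtl, Vhl and Keap1 were not listed. Rnf168, which spreads ubiquitin on H2A at DNA breaks, had 28.17, Uhrf1, a reader of hemimethylated DNA, 22.46, Rnf8, which acts before Rnf168, 17.0, and Rad18, which marks PCNA with the RAD6 enzymes, 11.0. Skp2, the F-box protein that removes the inhibitor p27, had 18.94 and was the only 1 of 6 F-box genes with other symbols at whose promoter a peak was listed.

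APC/C subunits and partners with other names had promoter peaks at 4 of 9 genes. These were Bub1b (11.74), Mad2l1 (9.32) and Bub3 (5.42) of the spindle checkpoint, and the subunit Cdc23 (8.13). Cdc16, Cdc26, Cdc27 and the activators Cdc20 and Fzr1 were not listed. Partners of the cullins had promoter peaks at 5 of 14 genes: the RING subunits Rbx1 (4.86) and Rnf7 (5.07), the exchange factors Cand1 (4.38) and Cand2 (4.64), and Tceb1 (4.70). All 5 folds lay below the 6.52 of all promoter pairs. The difference between cullins and partners was not tested.

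Of 9 COP9 signalosome genes, which remove NEDD8 from cullins, Cops6 (7.78) and Cops3 (7.32) had promoter peaks. Of 9 E1 genes, Sae1 of the SUMO pathway had 13.72 and Uba3 of the NEDD8 pathway 2.61, while Uba1, the main ubiquitin E1, was not listed. Of 11 genes for ubiquitin and its relatives 3 had one, among them Ubb (8.42) and Urm1 (4.85). The list drawn for other deubiquitinases had promoter peaks at 10 of 27 genes, with folds from 3.82 at Uspl1 to 9.01 at Mysm1, a protease for H2A. Whether each gene of this list acts on ubiquitin, Uspl1 included, was not checked. HECT ligases had 8 of 23, with folds from 3.31 to 10.9, the highest at Wwp2, and a median of 4.25.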

How the data were processed

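ChIP-seq was analysed from 1 deposited table of E2F1 peaks over input. The submitters' processing notes name Bowtie2 (2.1.0) and the builds mm9 and NCBIM37, and per the file headers MACS called the peaks. Not given here are its settings, the library depths and whether replicates were pooled. The deposited values are whole-number counts of tags, the pileup signal at the summit, a fold ratio over input, a score of 10 times the negative log10 of the p-value, and a false discovery rate in percent. All are the authors' values for single peaks. Genes and distances are also the authors'. Distances past a gene end were not read as distances to the TSS, since 83.3% of 694 were shorter than the gene.

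Pairs of a peak and a gene were counted with Python 3.11.15 and pandas 2.3.3. For a promoter pair, the summit had to lie at most 1000 bp from the TSS (850 bp for the window edge). Symbols were matched to RefSeq genes (GRCm38.p6) by symbol or unique synonym, for 68 of 68 symbols of the rule and 5493 of 5587 in all. Shares have exact (Clopper-Pearson) 95% intervals and tags exact Poisson intervals, with scipy 1.17.1, both for counting error only. No test was run, since 1 record stands for each group and peaks are not replicates. The search for the strict E2F motif was tested on simulated sequences that held it, and the search for the other motifs was not. The gene group and the lists were chosen with earlier results of these data known. Named in the text were the 15 pairs of highest fold, the extremes of each family, all Cul and Anapc genes, genes with known cycle roles, genes with several peaks and genes with shared promoters, and the rest by fold. A few genes that this rule names are not reported here. Alternatives are given in the closing section.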

Additional observations from a re-analysis of the deposited data

How the results depend on the processing

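Among the 2833 peaks with the lowest p, promoter pairs made up 60.5% of 38 ubiquitin pairs (60.18% of all pairs), their median fold was 9.20 (7.82) and 23 family genes had a promoter peak (12.2%; all protein-coding genes 9.342%). Among the 1416 peaks with the highest fold these values were 76.2% of 21 pairs (70.03%), 10.18 (10.26) and 16 genes (8.47%; 5.479%). Both settings keep fewer and stronger peaks by construction. Promoters of 500 or 5000 bp, the authors' promoter class and the closest gene alone left the share between 37.5% and 55.0%. The median fold lay between 5.955 and 7.195, and the number of genes between 30 and 42 (15.9% to 22.2%). Over the whole table these settings gave shares of 37.11% to 51.49% and median folds of 6.23 to 6.71. Of all protein-coding genes, 11.45% to 15.31% had a promoter peak. With all annotated genes the counts stayed at 35 (17.6% of 199, against 5.78% of all genes) and 69 (34.7%, against 11.0%), so the shares over all genes fell from 13.1% and 24.7%. With symbols matched without synonyms the count was 35 (18.5%, against 11.7% of all protein-coding genes). Without the Fbxw and Usp gene copies taken as expressed outside liver the 35 genes were 21.2% of 165, against 13.1% of all protein-coding genes. No family gene left out had a promoter peak, so the family share could only rise. The E2F motif share was 18.8% with the short motif (9.57% of all promoters) and 3.12% with bases before the start alone (1.86%). The depth of the libraries is unknown, and the number of peaks limits each interval.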

Other observations

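Among the ubiquitin pairs deep inside a gene, the 3 of highest fold lay late in it. Of the 18 ubiquitin pairs more than 20000 bp from the TSS, 4 lay at or past 85% of the gene length, a limit chosen after the values were seen. They were those of Fbxl5 (fold 11.73, 87.7% of the gene length), Usp18 (8.51, 97.7%), Usp25 (6.92, 99.2%) and 1 of the 2 in Usp34 (2.97, 94.3%). The other 14 had folds from 2.75 to 4.21. The same split was not made for the deep pairs of the whole table. It is therefore not shown to be particular to ubiquitin genes. The distances are on mm9 and the gene lengths on GRCm38.p6, so the percentages are approximate. The Usp34 peak of fold 2.97 was nearer to Ahsa2 and lay past the end of that gene. What else lies past these gene ends was not analysed.

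Fold and tag number ordered the peaks differently. Usp19 reached a fold of 9.34 with 66 tags in a region of 961 bp. The nearer of the Fbxl17 peaks had a fold of 4.05 with 285 tags (exact Poisson 95% interval 253 to 320) in a region of 3495 bp. Both had a pileup signal of 49 at the summit. The Usp15 peak inside the gene had 241 tags and a fold of 2.77, and the promoter peak of the same gene 111 tags and a fold of 4.53.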
